A study of Rattus norvegicus with 108 samples.

Results

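Cldn5, Flt1, Pecam1, Slco1a4, Itm2a, Abcb1a and Slc2a1 are 7 genes of blood vessel endothelium that are widely used to follow the blood-brain barrier. They were chosen by symbol, and 6 of the 7 matched a gene among the 19127 in the count tables. Slco1a4 was not analysed here, because the only related symbol, Slco1a2, could not be assigned to it. The genes were followed across the annotated cell types of the dorsal dentate gyrus (dorDG), between dorDG and the ventral dentate gyrus (venDG), and between fluoxetine-treated (FT) and Sham rats.

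The animals were male Long-Evans rats, 2 months old when divided into treatment groups, with no genetic modification named. FT rats took fluoxetine, a selective serotonin reuptake inhibitor, at 18 mg/kg in their drink for 6 weeks, and Sham rats drank water. Both groups were killed after the 6 weeks. Both regions were punched from slices, each replicate pooled the tissue of 3 animals, and RNA was counted by 10x Genomics 3′ sequencing as unique molecular identifiers (UMIs), each standing for 1 captured RNA molecule. There were 4 dorDG FT replicates (570 cells), 5 dorDG Sham replicates (719 cells), 5 venDG FT replicates (1249 cells) and 5 venDG Sham replicates (809 cells). Suspensions of whole cells and of nuclei were both made from the tissue, and the sources used here do not tell which reaction held which.

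The replicates held 42 to 384 cells and 220162 to 1523537 UMIs. Of the 3517 cell columns in the tables, 170 with a second suffix were left out, since the barcodes of 167 of them repeated those of cells in the same reaction, and 3347 were used. Of the 3338 barcodes of these cells, 9 occurred in more than 1 reaction. The authors named 12 cell types in dorDG. The venDG cells carried no such names here and were clustered together with the dorDG cells, with these genes and a wider barrier list left out of the clustering.

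Endothelial cells of brain capillaries are sealed to each other by tight junctions, so that most molecules pass through the cells only by way of transporters. Cldn5 encodes claudin 5, the main claudin of these junctions, and Pecam1 encodes an adhesion protein of endothelial contacts. Flt1 encodes a receptor for vascular endothelial growth factor that binds the ligand tightly and signals weakly. Slc2a1 encodes the glucose transporter GLUT1, Abcb1a the efflux pump P-glycoprotein, Slco1a4 an organic anion transporter, and Itm2a a single-pass membrane protein.

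The sequences just before the transcription start are shown for the 3 genes with the most UMIs in endothelial cells, to set beside their shared cell type. They are the last 90 bases before the start in the RefSeq table of build GRCr8, read 5′ to 3′ on the gene's strand. Capitals mark the TATA box word (TATAAA) or the GC box word (GGGCGG, here read as its reverse complement CCGCCC).
Flt1: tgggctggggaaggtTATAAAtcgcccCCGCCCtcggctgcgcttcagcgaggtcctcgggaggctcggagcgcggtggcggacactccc
Itm2a: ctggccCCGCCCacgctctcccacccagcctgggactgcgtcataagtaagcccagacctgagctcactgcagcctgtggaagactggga
Slc2a1: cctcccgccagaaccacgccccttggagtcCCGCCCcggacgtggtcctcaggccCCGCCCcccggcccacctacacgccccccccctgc
The Flt1 sequence lies at chr12:12333340-12333429 on the plus strand, that of Itm2a at chrX:76565145-76565234 on the minus strand, and that of Slc2a1 at chr5:138002432-138002521 on the plus strand. A promoter of 250 bases was found for 6 of the 7 genes, Pecam1 being the one unmatched. Of these 6, only Flt1 held TATAAA (75 to 70 bases before the start), a word found on either strand in 12.9% of all 33469 promoters. Flt1 also held TGACGTCA, the cAMP response element (124 to 117 bases before the start), a word found in 1.59% of promoters. GGGCGG stood in the promoters of Cldn5, Flt1, Itm2a, Abcb1a and Slc2a1 against 30.5% of all promoters, with 3 copies each in Flt1 and Slc2a1. CCAAT, in 34.0% of promoters, was found in Cldn5 (2 copies) and Slco1a4. AGGAAG, a core of ETS factor sites found in 29.5% of promoters, stood in Flt1 (2 copies) and Slco1a4. A matched word is a description of the letters and shows no binding.

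The 180 dorDG cells that the authors named Endothelial carried the markers of that type. The table held 18 endothelial markers, of which 16 reached 2-fold or more over the other 10 types (Mossy cells, described below, left out), with Ecscr and Cd34 at 0. The markers summed to 48.2 UMIs per 10000 in Endothelial cells and 2.61 in the other 10 types. Mural markers, those of pericytes and smooth muscle cells, summed to 3.84 in Endothelial cells. Levels are given below as UMIs of a gene per 10000 UMIs of the summed cells. The types were named from the same counts, so their levels are a description, with no test.

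Flt1, the growth factor receptor, stood at 19.5 UMIs per 10000 in Endothelial cells of dorDG (1322 UMIs, 95% Poisson interval 18.5 to 20.6). Over the 9 replicates the median was 19.2 and the SD 4.96, from 15.3 in Sham replicate 2 to 32.4 in FT replicate 5. The other 10 types together were at 0.805, so the Endothelial level was 24.2 times as high. Every one of these 10 types lay between 0.549 (AstroSub1) and 1.03 (Microglia2). Their replicate spreads overlapped, and no order among them can be read.

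Itm2a stood out most against the other types. Its Endothelial level was 29.0 (interval 27.7 to 30.3, 28.1 ± 8.90 over 9 replicates), 52.9 times that of the other 10 types, which ranged from 0.306 in InhibNeuron to 0.779 in Granule cells. Replicates spread from 9.09 in Sham replicate 2 to 39.0 in Sham replicate 4. Abcb1a, the efflux pump, was at 5.65 (interval 5.10 to 6.24) and varied least among the replicates relative to its mean, at 5.66 ± 0.706 (n = 9, 4.67 to 6.80). That was 31.9 times the other 10 types, of which Granule cells were highest at 0.365. Its paralogue Abcb1b, which shares much of its sequence, had a level of 0.103 in Endothelial cells (7 UMIs) against 0.749 in InhibNeuron and 0.864 in Microglia1, and reads that fit both genes could have been assigned to either or dropped.

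Slc2a1, the glucose transporter, was at 13.3 in Endothelial cells (interval 12.4 to 14.2), with replicates at 12.8 ± 3.77 (n = 9) from 7.38 to 18.6. The other 10 types together were 22.5 times lower. The highest of them were the glial types AstroSub1 at 1.45 (interval 1.06 to 1.94) and BergGlia at 1.21 (6 UMIs, interval 0.443 to 2.62), and the lowest was InhibNeuron at 0.217. In AstroSub1 the replicates spread at 1.40 ± 0.617 (n = 8), which overlapped Oligodend2 at 0.805 ± 0.463 (n = 7). Pecam1, the adhesion gene, was at 4.79 (interval 4.29 to 5.34, 4.72 ± 0.996 over 9 replicates), and its 10.2-fold difference from the other types was the smallest of these 5 genes. Granule cells had 0.706 and BergGlia had 0 of Pecam1, where a count of 0, taken as up to 3 counts, allows a level of up to 0.603.

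Cldn5, the tight junction gene, was almost unread. All cells of both regions held 53 of its UMIs, 23 of them in dorDG and 6 in Endothelial cells. Its Endothelial level of 0.0885 (interval 0.0325 to 0.193) compared with 0.0301 in the other 10 types (15 UMIs, interval 0.0168 to 0.0496), and the intervals overlapped. The remaining results therefore concern Flt1, Pecam1, Itm2a, Abcb1a and Slc2a1.

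**Figure D1:**
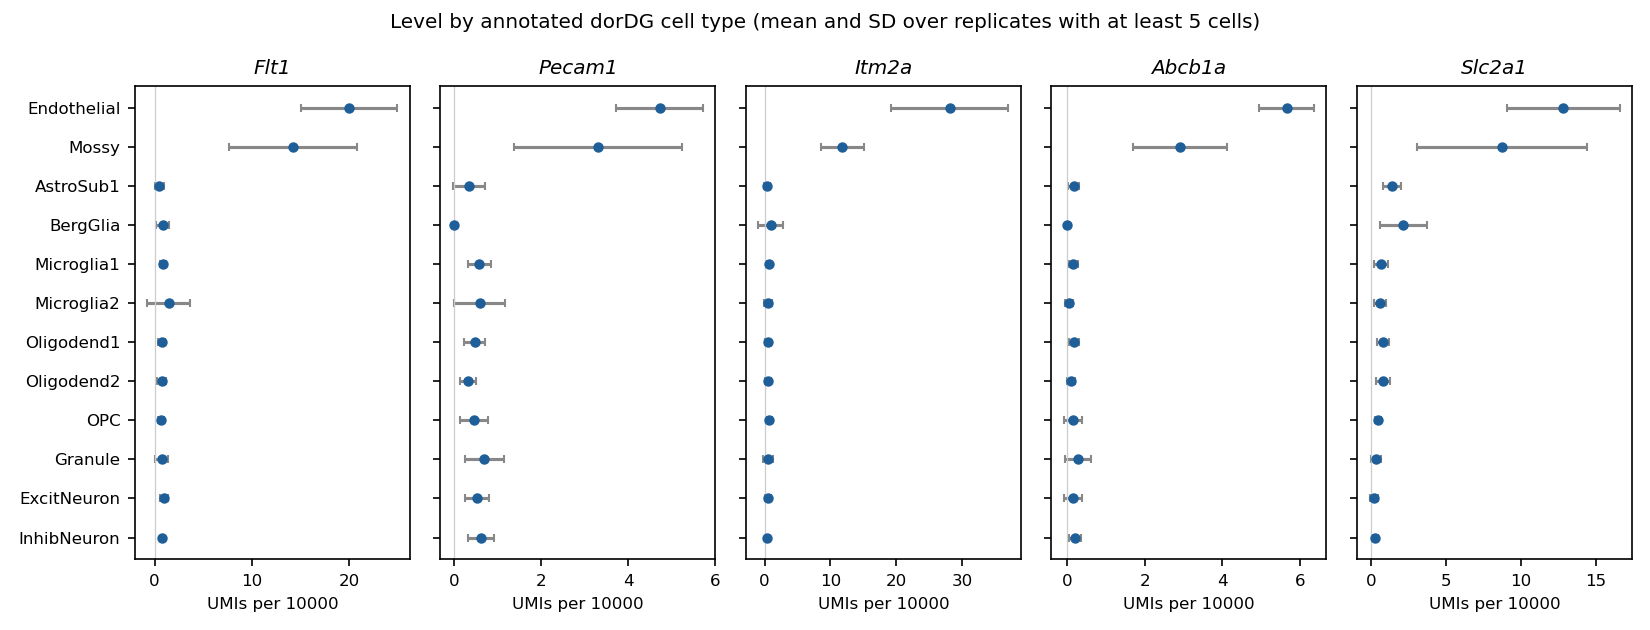
Levels of Flt1, Pecam1, Itm2a, Abcb1a and Slc2a1 (UMIs per 10000) in each cell type that the authors named in dorDG, as the mean (point) and SD (bar) over replicates holding 5 or more such cells. Endothelial cells, and below them the cells annotated Mossy, stand above the other 10 types for all 5 genes.

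The same was seen cell by cell. With each cell thinned to 1000 UMIs, a UMI of Itm2a was found in 81.7% of Endothelial cells and 5.38% of cells of the other 10 types. Flt1 was found in 74.6% against 7.36%, Slc2a1 in 66.3% against 5.38%, Abcb1a in 40.2% against 2.09%, and Pecam1 in 35.5% against 5.05%. Before thinning, when the median depth was 2945 UMIs in Endothelial cells and 4210 in the others, Itm2a was found in 162 of the 180 Endothelial cells and 19.6% of the others, and the shares were 83.9% and 28.3% for Flt1, 88.3% and 20.5% for Slc2a1, 71.1% and 7.81% for Abcb1a, and 62.2% and 18.4% for Pecam1. Of the 180 Endothelial cells, 82 held a UMI of all 5 genes and 153 held at least 3, whereas 2 of the 1037 other cells held all 5. Free RNA was not measured here. Whether the low share in other types came from free RNA or from expression in those cells was not tested.

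The cells annotated Mossy were the exception among the types not named Endothelial. These 72 cells had levels of 15.9 for Flt1, 11.5 for Itm2a, 9.78 for Slc2a1, 3.18 for Pecam1 and 2.76 for Abcb1a, or 81.5%, 39.7%, 73.5%, 66.4% and 48.8% of the Endothelial levels. Over the 7 replicates with at least 5 such cells, Flt1 ranged from 9.15 to 26.7, which overlapped the Endothelial replicates. Itm2a ranged from 7.97 to 17.1 and Abcb1a from 1.10 to 5.19, against 9.09 to 39.0 and 4.67 to 6.80 in Endothelial cells. For Itm2a 6 of the 7 lay inside the Endothelial range, but its low end of 9.09 was Sham replicate 2 alone. All 7 lay below the next lowest Endothelial replicate, FT replicate 2 at 19.9. For Abcb1a only Sham replicate 4 (5.19) lay inside the Endothelial range and the other 6 lay below it.

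Markers went against the name Mossy, which is that of a glutamatergic neuron of the dentate hilus. In these 72 cells, 16 of 18 endothelial and 12 of 12 mural markers reached 2-fold or more over the other 10 types. Mural markers summed to 43.0, against 3.84 in Endothelial cells and 1.46 in the other types, with Vtn at 7.89, Tagln at 6.79, Higd1b at 6.20, Rgs5 at 4.43 and Pdgfrb at 3.23. Excitatory neuron markers summed to 1.59, below the 4.07 of the other 10 types, and Slc17a6, one of 4 of these in the table, was at 0. In the joint clustering 35 of the 72 cells fell in clusters with both endothelial and mural markers, 24 in Mural-like clusters, 11 in Endothelial-like ones and 2 in unnamed ones, whereas 174 of the 180 Endothelial cells were Endothelial-like. Clusters 16 and 28, those with both marker sets, were deep, with medians of 7625.5 and 6502 UMIs over both regions. The medians were 3835, 1702 and 3387 in Endothelial-like clusters 9, 10 and 11. They were 1690.5 and 5488 in Mural-like clusters 18 and 29. Whether clusters 16 and 28 held doublets, an endothelial and a mural cell read as a single cell, was not tested. The 72 cells are called cells annotated Mossy below.

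Levels of the genes were also compared among the vascular clusters in both regions. Cluster 9, led by Plat, Gem and Apold1, had the highest Flt1 of the Endothelial-like clusters, at 24.4 in dorDG and 25.3 in venDG. Cluster 11, which had Emcn, Car4 and Bsg among its leading genes, had the highest Itm2a (43.1 and 48.4) and Slc2a1 (18.3 and 16.2). Cluster 10, with Vwf, Egfl7 and Tek and a shallower median of 1702 UMIs, had the highest Abcb1a (8.02 and 6.78) and the lowest Slc2a1 of these clusters (9.65 and 7.39).

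Itm2a was also found in mural cells. In cluster 18, a Mural-like cluster of 66 cells, it stood at 16.2 in dorDG (19 cells, interval 12.4 to 20.7). In venDG it was at 13.5 there (47 cells, interval 11.1 to 16.3). No dorDG replicate held 5 or more cells of this cluster. In that cluster Flt1 was at 3.08 and 2.46, Slc2a1 at 0.770 and 0.123, and both Pecam1 and Abcb1a were at 0 in dorDG (a count of 0 allows up to 0.770) and 0.246 in venDG. In the second Mural-like cluster, cluster 29 (17 cells), Itm2a was low, at 0.679 in dorDG (2 UMIs in 5 cells). In venDG it was at 1.47 there (10 UMIs in 12 cells). These intervals cover counting error only, and the clusters were made from the same cells, so the differences between them were not tested.

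**Figure D2:**
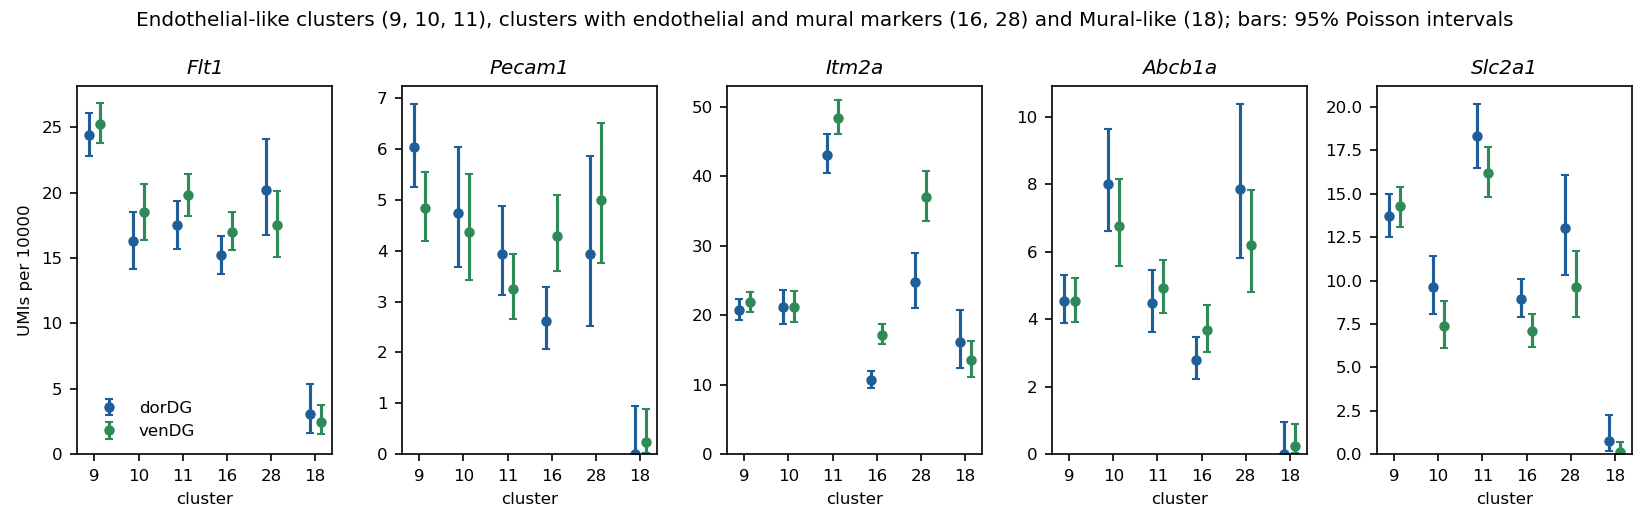
Levels of the 5 genes (UMIs per 10000, bars 95% Poisson intervals) in Endothelial-like clusters 9, 10 and 11, clusters 16 and 28 with endothelial and mural markers, and Mural-like cluster 18, dorDG beside venDG. Itm2a and Slc2a1 are highest among the Endothelial-like clusters in cluster 11, and Itm2a but not Slc2a1 stays high in Mural-like cluster 18.

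The 3 genes most like each of the 5, these genes left out, were ranked by the Pearson correlation of log2 levels over the 12 dorDG types. They were Plscr2 (0.985), Egfl7 (0.984) and Tm4sf1 (0.979) for Flt1, and Egfl7 (0.996), C2 (0.979) and Tm4sf1 (0.979) for Itm2a. For Abcb1a they were Car4 (0.978), Akr1cl (0.977) and Lsr (0.976), for Slc2a1 Vim (0.962), Plat (0.961) and Tinagl1 (0.945), and for Pecam1 Tbc1d4 (0.974), Ebf1 (0.972) and Uaca (0.958). Among the genes themselves the correlation ran from 0.665 (Pecam1 with Slc2a1) to 0.978 (Flt1 with Itm2a). The types share libraries and differ in depth, so these values rank the genes and carry no test.

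A wider list set these genes beside others of the barrier. Of its 133 genes 120 were in the table, 73 had at least 20 UMIs in Endothelial cells, and 34 of these were at least 5-fold above the other 10 types. By role these 34 included 9 of 23 nutrient and ion transporters, among them Slco1c1, a thyroxine transporter, at 9.51. They included 4 of 18 junction genes, among them Esam, an adhesion molecule, at 4.03 and Ocln, which encodes occludin, at 2.85. They also included 2 of 7 further efflux pumps, Abcg2 at 1.21 and Abcc4 at 1.96. Of the Wnt pathway and barrier regulators 5 of 16 did, with Sox17 at 2.02 and Lef1 at 3.82.

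Fluoxetine against Sham was compared on replicate sums with edgeR's quasi-likelihood test. Only genes averaging 0.5 UMIs per 10000 or more entered a fit. A call required a log2 fold change of 0.32 or more in size and, after Benjamini-Hochberg adjustment over every gene in the fit, a p no higher than 0.2. Cldn5 was below that filter in every comparison, so 5 of the 7 genes were tested. Each replicate is a pool of animals, and p-values measure the spread between pools.

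Over all dorDG cells, Flt1 was called higher in FT and none of the other 4 genes was called. Flt1 levels in FT replicates 1, 2, 4 and 5 were 3.05, 6.35, 5.04 and 5.33, and those in Sham replicates 1 to 5 were 2.76, 3.23, 2.73, 4.60 and 3.07. FT replicates 2, 4 and 5 lay above every Sham replicate, while FT replicate 1 lay inside the Sham range, so the groups overlapped. The log2 fold change was 0.67 (SE 0.27, p = 0.0267, adjusted p = 0.174 by edgeR). The exact two-sided permutation test of the same levels gave p = 0.0714 (4 against 5, smallest possible p 0.00794). Of all 4274 genes tested, 28.6% were called and 12.4% were called higher, so 1 call among 5 genes is near the background. Over all cells, more cells of a type and more RNA per cell cannot be told apart.

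Slc2a1 missed the call, with a log2 fold change of 0.57 (SE 0.31, p = 0.0890, adjusted p = 0.232 by edgeR). Its FT levels were 2.42, 4.95, 2.76 and 2.45 and its Sham levels 1.94, 2.78, 1.49, 3.12 and 1.68, and FT replicate 2 was the only one above all Sham replicates. Itm2a ranged from 3.87 to 5.83 in FT and from 2.25 to 8.17 in Sham, with Sham replicates at both ends, and its log2 fold change was 0.20 (SE 0.33). Abcb1a ranged from 0.839 to 1.29 against 0.652 to 1.38 (0.24, SE 0.25). Pecam1 ranged from 0.752 to 1.48 against 0.940 to 1.59 (log2 fold change -0.15, SE 0.25). The median of the 5 log2 fold changes was 0.24, beside -0.04 over all genes tested.

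**Figure D3:**
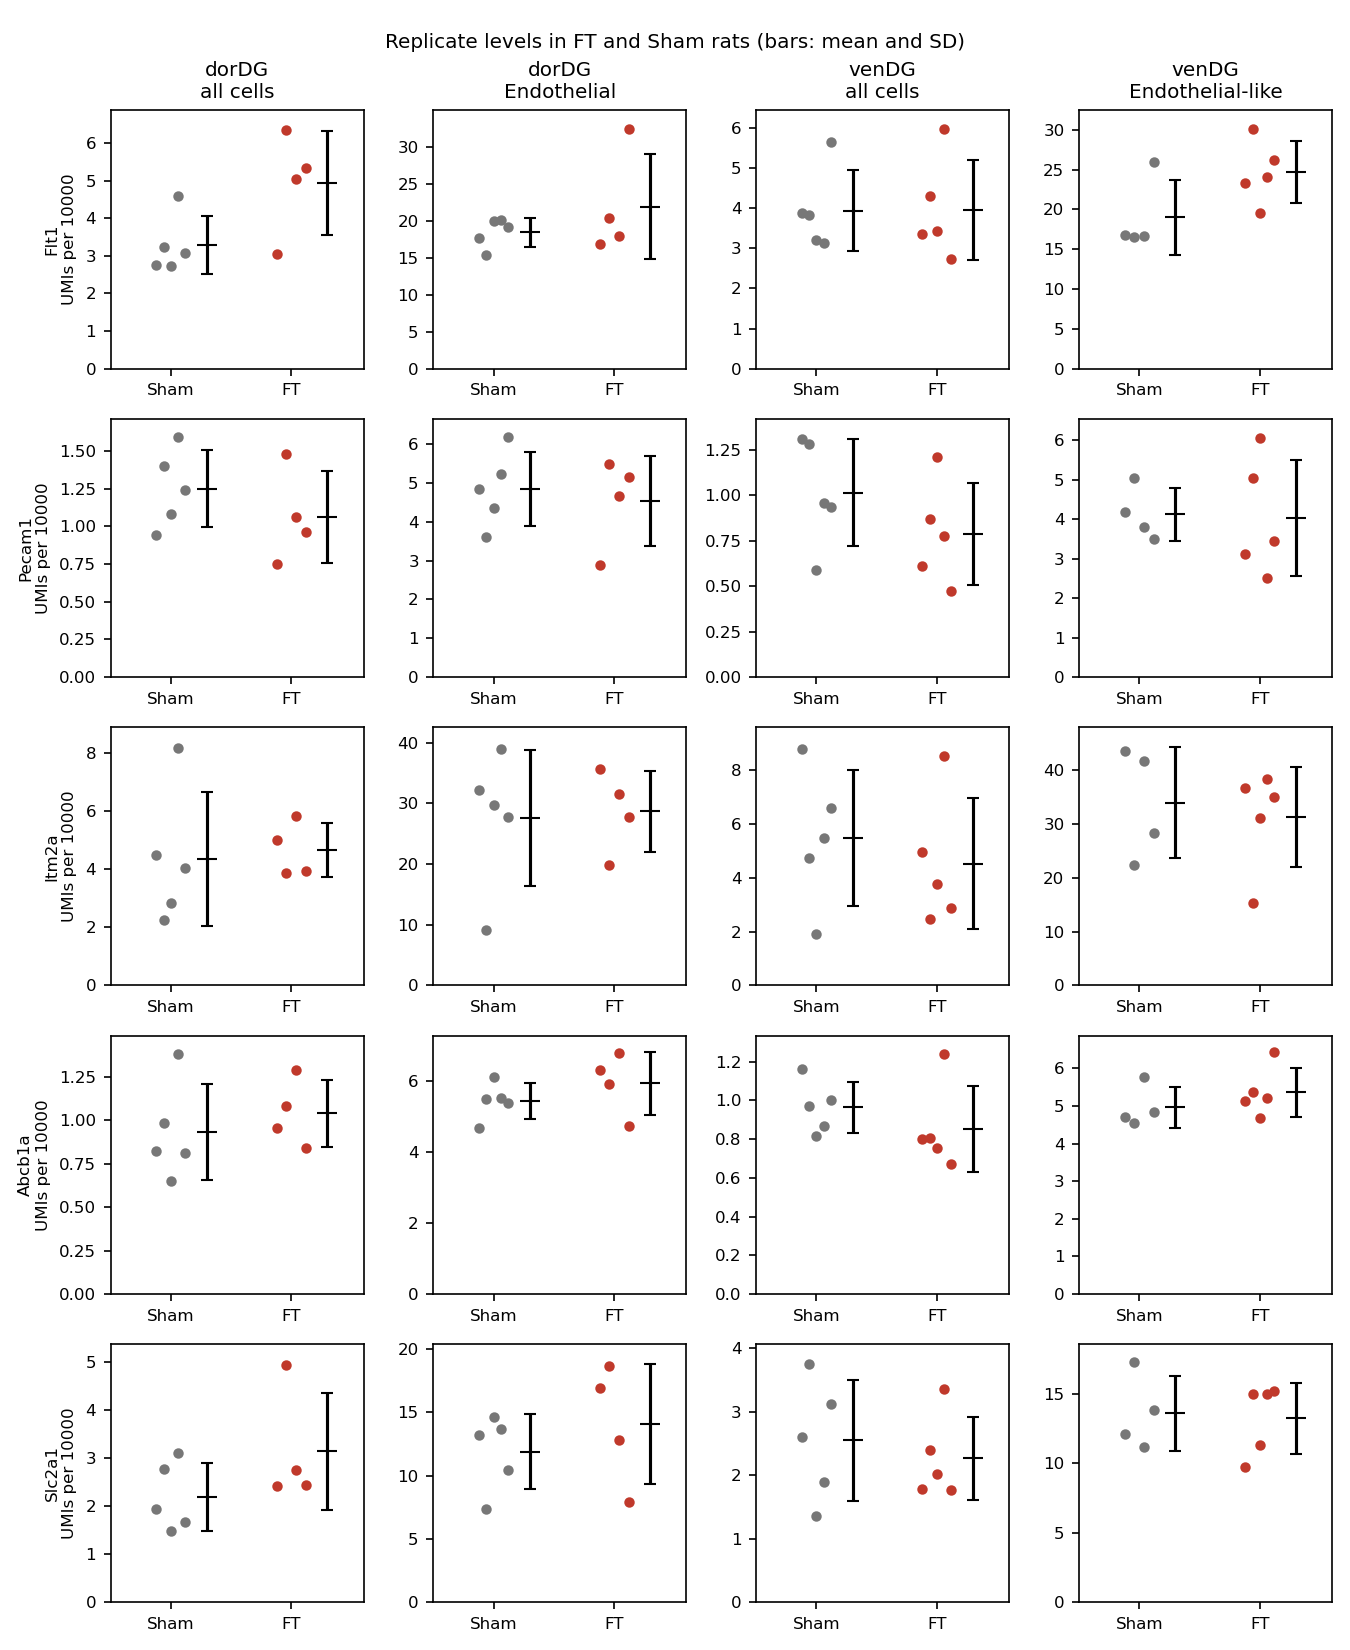
Levels of the 5 genes (UMIs per 10000) in each replicate, FT beside Sham, for all cells and for endothelial cells of both regions, with bars for the group mean and SD. Flt1 over all dorDG cells is highest in 3 of 4 FT replicates, and the groups overlap in every panel.

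The Flt1 UMIs of dorDG were then divided by the cells that held them. In FT, 608 of 1400 Flt1 UMIs (43.4%, 95% Wilson interval 40.9 to 46.0) were in cells annotated Mossy and 42.8% in Endothelial cells. In Sham, 141 of 1072 (13.2%, interval 11.3 to 15.3) were in cells annotated Mossy and 67.4% in Endothelial cells. By replicate the share in cells annotated Mossy was 30.4%, 53.6%, 40.3% and 37.6% in FT and 16.1%, 29.4%, 0%, 13.2% and 0% in Sham. The lowest FT replicate was just above the highest Sham one, and FT replicate 2 alone gave 301 of the 608 UMIs. In that replicate the Endothelial-like clusters held 28 cells with 397 Flt1 UMIs, against 21 cells with 182 for the annotation Endothelial. In dorDG, Endothelial-like clusters held only cells annotated Endothelial or Mossy. The excess therefore lay in cells annotated Mossy that clustered as Endothelial-like. Clusters with both endothelial and mural markers held 84 Flt1 UMIs in that replicate. Cells annotated Mossy made up 7.69%, 8.63%, 9.16% and 9.09% of cells in FT replicates 1, 2, 4 and 5, and 3.91%, 3.62%, 0%, 5.93% and 0.862% in Sham. The groups did not overlap (exact permutation test, two-sided p = 0.0159, unadjusted, 1 of 7 shares compared). In dorDG, clusters with both endothelial and mural markers made up 4.52% in FT and 1.81% in Sham (exact p = 0.0238, unadjusted). The part of doublets in these shares was not tested. Mural-like clusters made up 3.11% and 0.965% of dorDG cells (exact p = 0.0397, unadjusted). In venDG, which has no Mossy annotation here, the clusters with both marker sets made up 2.41% in FT and 2.66% in Sham (exact p = 0.778). Mural-like clusters made up 2.06% and 3.66% of venDG cells (exact p = 0.254). Within the cells annotated Mossy, Flt1 was at 9.49, 26.7, 17.8 and 16.4 in FT and at 9.44, 10.4 and 9.15 in Sham replicates 1, 2 and 4. So 3 FT replicates lay above Sham and FT replicate 1 lay among them (exact permutation test, two-sided p = 0.0857, smallest possible p 0.0286). Mural markers moved the same way, summing to 4.25 to 8.17 over all cells in FT and 1.16 to 6.15 in Sham.

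Without the cells annotated Mossy, an alternative chosen after the data were seen, Flt1 was not called. Its levels were then 2.35, 3.38, 3.40 and 3.79 in FT and 2.43, 2.51, 2.73, 4.28 and 3.08 in Sham, and the log2 fold change was 0.19 (adjusted p = 0.597). The call was also lost in cells with at least 2% ribosomal UMIs (0.27), with the replicate number as a block (0.57, adjusted p = 0.221), with a filter of 10 UMIs in place of that on the mean (0.74, adjusted p = 0.306), and without FT replicate 2, 4 or 5 or Sham replicate 1, 3 or 5 in turn (0.52 to 0.65, adjusted p from 0.233 to 0.385). Replicates 1 and 2 of each group held 2 reactions and the rest held 1, and the log2 ratio of the mean Flt1 levels, FT over Sham, was 0.58 among those of 1 reaction and 0.65 among those of 2.

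**Figure D4:**
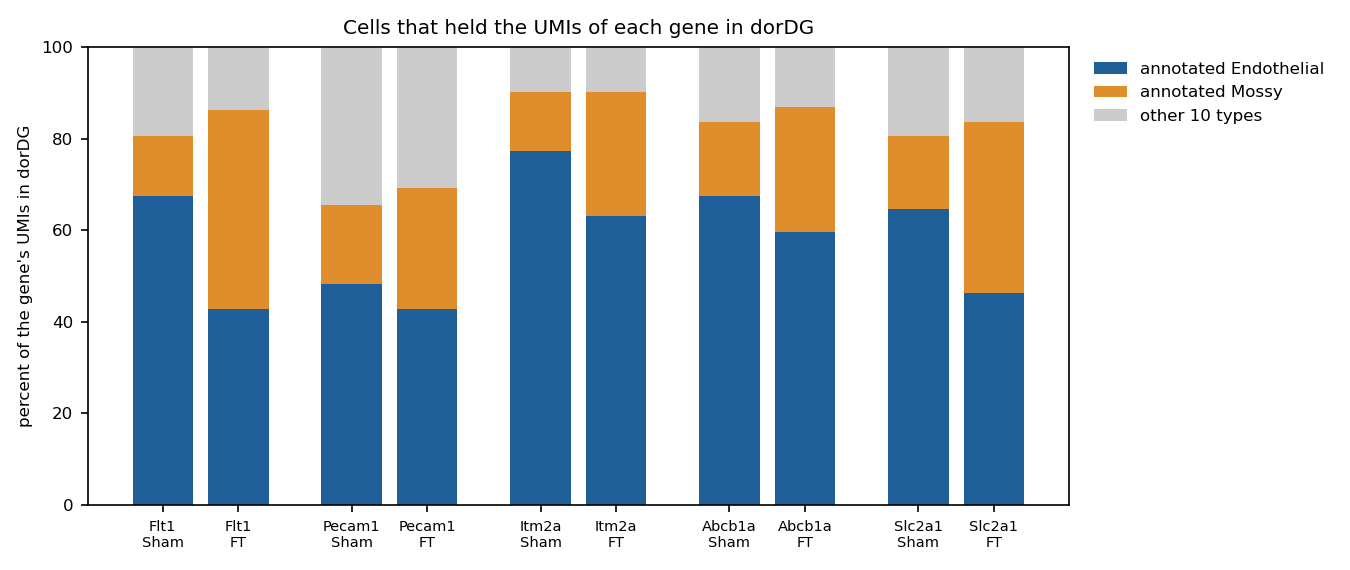
Percent of each gene's dorDG UMIs that lay in cells annotated Endothelial, cells annotated Mossy and the other 10 types, Sham beside FT. Pooled over replicates, the share in cells annotated Mossy is larger in FT for all 5 genes, and for Flt1 it is 43.4% against 13.2%. By replicate, FT and Sham overlap for the genes other than Flt1. Pecam1 has 32 of 81 UMIs in these cells in Sham replicate 2 and 7 of 63 in FT replicate 4.

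Within the 180 Endothelial cells of dorDG (76 FT, 104 Sham) none of the 5 genes was called. Flt1 was 16.9, 20.4, 18.0 and 32.4 in FT replicates 1, 2, 4 and 5, and 17.7, 15.3, 19.9, 20.1 and 19.2 in Sham. FT replicate 5, with 7 cells, was the highest, FT replicate 1 lay among the lower Sham values, and the log2 fold change was 0.24 (SE 0.24). Slc2a1 was 16.9, 18.6, 12.8 and 7.95 in FT and 13.2, 7.38, 14.6, 13.7 and 10.4 in Sham (0.28, SE 0.28), with FT replicates both above and among the Sham ones. The log2 ratio of its means was -0.31 among replicates of 1 reaction and 0.79 among those of 2. Itm2a was 35.6, 19.9, 31.5 and 27.7 in FT and 32.2, 9.09, 29.7, 39.0 and 27.7 in Sham, and the fold change was 0.07 (SE 0.30). Replicate 2 had the lowest Itm2a of its group in both groups. Abcb1a lay between 4.73 and 6.80 in FT and 4.67 and 6.12 in Sham (0.15, SE 0.26), and Pecam1 between 2.89 and 5.49 and between 3.60 and 6.18 (log2 fold change -0.09, SE 0.29). DESeq2 called 0 genes here and so did edgeR (0 of 3731, 0%), which had 216 at an unadjusted p under 0.05. Mural markers summed to 1.46 to 3.40 in these FT cells and 1.53 to 9.07 in these Sham cells.

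Endothelial cells took up 13.2% ± 5.26 of the cells of the 4 dorDG FT replicates, and Sham replicates had 14.7% ± 5.30 (n = 5; exact permutation test, two-sided p = 0.706, adjusted over both regions 0.849). In venDG the Endothelial-like share was 11.7% ± 5.19 in FT and 12.2% ± 4.56 in Sham (n = 5 each; exact p = 0.849). These differences were smaller than the spread between replicates.

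Over all venDG cells no gene was called by edgeR among 4079 (0%, 237 at an unadjusted p under 0.05), while DESeq2 called 18. Flt1 was 3.36, 4.30, 3.44, 5.98 and 2.74 in FT and 3.88, 3.83, 3.22, 3.13 and 5.66 in Sham, a log2 fold change of 0.02 (SE 0.24). One replicate of each group, FT 4 and Sham 5, stood apart above the rest. The other 4 log2 fold changes were between -0.37 (Pecam1, SE 0.27) and -0.17 (Slc2a1, SE 0.27), each with overlapping groups. Itm2a spread widely in both groups, from 2.45 to 8.50 in FT and from 1.91 to 8.77 in Sham.

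The Endothelial-like cells of venDG numbered 139 in 5 FT replicates and 104 in 4 Sham replicates, since Sham replicate 3 had 2 such cells and was left out. Flt1 was 23.3, 30.1, 19.5, 24.1 and 26.2 in FT, and 16.8, 16.5, 16.6 and 26.0 in Sham replicates 1, 2, 4 and 5. All FT replicates were above the 3 lower Sham replicates, and Sham replicate 5, with 9 cells, lay inside the FT range. The log2 fold change was 0.41 (SE 0.23, p = 0.0820, adjusted p = 1 by edgeR; exact permutation p = 0.0714 with a smallest possible p of 0.00794). The other 4 genes changed by -0.13 (Itm2a, SE 0.25) to 0.12 (Abcb1a, SE 0.23) on the log2 scale, and none of the 3521 genes was called (0%), with 137 at an unadjusted p under 0.05 and 0 calls by DESeq2. Within replicates of 1 reaction the log2 ratio of Flt1 was 0.13 and within those of 2 reactions 0.68.

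**Figure D5:**
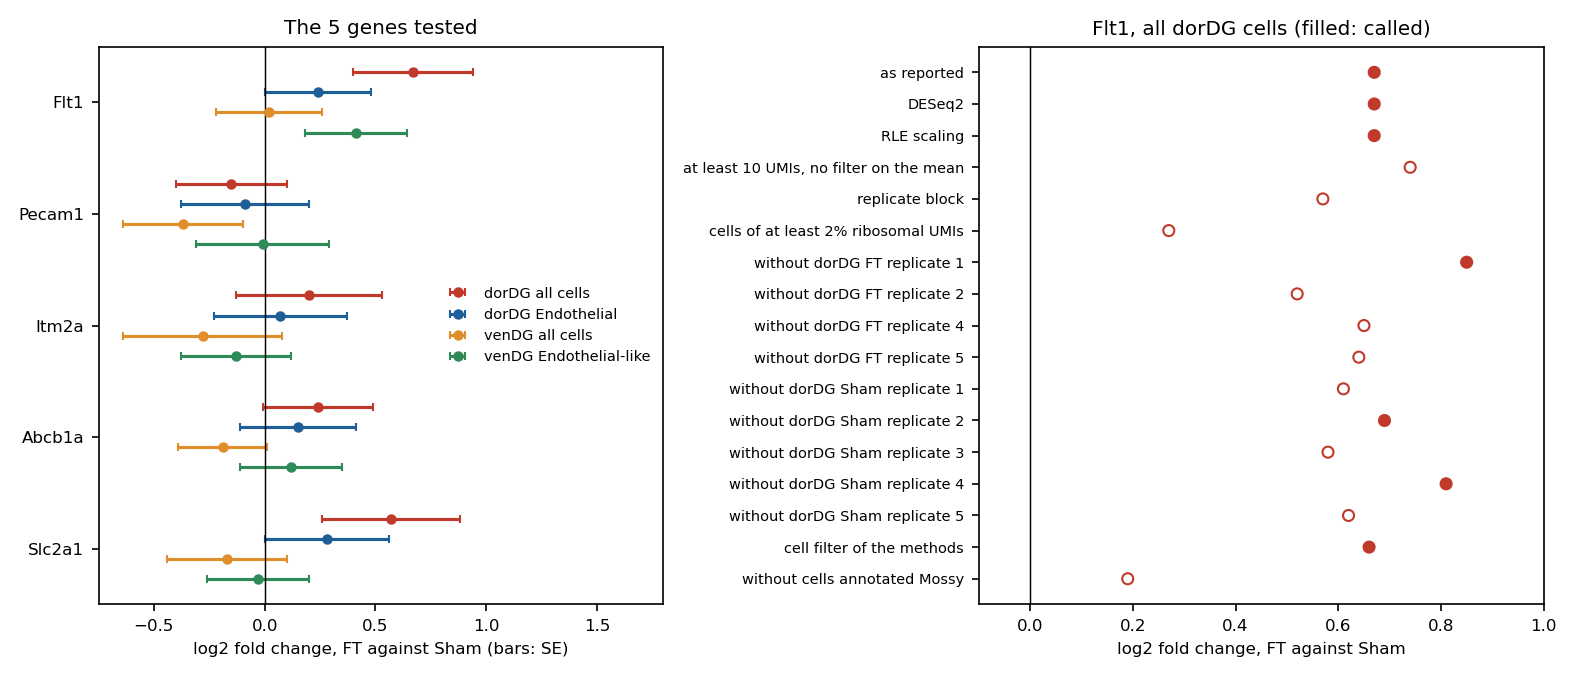
Left, log2 fold changes of FT against Sham for the 5 genes with their standard errors in 4 sets of cells. Right, the log2 fold change of Flt1 over all dorDG cells under each alternative, filled where it was called. Flt1 was called with the settings reported and kept a value above 0 in each, falling to 0.19 without the cells annotated Mossy.

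dorDG and venDG did not differ in any of the 5 genes by the rule. The pools of both regions were taken as independent, although they may share animals. Over all cells the log2 fold changes of dorDG against venDG lay between -0.18 (Itm2a, SE 0.26) and 0.31 (Pecam1, SE 0.18), and 0 of the 5 were called beside 8 of 4161 genes (0.192%), of which 6 were higher in dorDG (0.144%) and 2 lower (0.0481%). In Endothelial-like cells they lay between -0.23 (Itm2a, SE 0.19) and 0.26 (Pecam1, SE 0.20), and again 0 of 5 were called, beside 1 of 3571 genes (0.0280%). Flt1 differed by -0.09 (SE 0.15), Abcb1a by 0.03 (SE 0.15) and Slc2a1 by -0.02 (SE 0.18) in these cells.

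The difference between regions in the response to fluoxetine was tested as an interaction. For Flt1 over all cells it was 0.62 on the log2 scale (SE 0.36, p = 0.0967, adjusted p = 0.597 by edgeR), and for Slc2a1 it was 0.71 (SE 0.42, p = 0.103, adjusted p = 0.598). In Endothelial-like cells the values were -0.03 (SE 0.31) for Flt1 and 0.31 (SE 0.35) for Slc2a1. None of the genes passed in either set, where edgeR called 0 of 4161 (0%, 404 at an unadjusted p under 0.05, DESeq2 8) and 0 of 3571 (0%, 172 at an unadjusted p under 0.05, DESeq2 0). With the replicate block 412 and 6 genes were called, none of them among the 5.

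Of the wider barrier list, 38 genes were tested over all dorDG cells, and 4 were called higher in FT and 2 lower, beside 12.4% and 16.1% of all genes. These 6 calls were all lost, with 0 genes called in all, under the replicate block, in cells with at least 2% ribosomal UMIs, and without FT replicate 4 or 5 or Sham replicate 3 or 5. The 4 were Mcam (log2 fold change 0.83), an adhesion molecule, Cgnl1 (0.74), a junction protein, Cav1 (0.73), the main protein of caveolae, and Fcgrt (0.64), an antibody receptor. The 2 were Abcc5, an efflux pump (log2 fold change -0.84), and Nrp2, a co-receptor for growth factors (-0.73), and the related Nrp1, at -0.71 (SE 0.41), was not called. Abcc5 and Nrp2 were highest in ExcitNeuron (3.30) and Microglia1 (2.56), not in Endothelial cells (1.34 and 0.236), and Mcam was at 0.266 in Endothelial cells, 2.35 in Oligodend1, 2.40 in Oligodend2 and 2.97 in cells annotated Mossy. Without the latter cells only Abcc5 was called (-0.81), and Cgnl1 was not tested. The list's median log2 fold change was 0.06.

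In the other comparisons none of the list was called. Over all venDG cells 39 of the list were tested, and their values ran from -0.35 (Slco1c1, SE 0.34) to 0.47 (Stmn2, SE 0.25), with F11r and Slc1a1 also at the low end and Cav1 and Jam3 at the high end. In dorDG Endothelial cells 57 were tested, from -2.04 for the junction adhesion gene Jam3 (SE 0.71, p = 0.00865, adjusted p = 0.813 by edgeR), with Tcf7 at -1.04 and Slc38a5 at -0.83, to 1.10 for Icam1 (SE 0.58), with Cgnl1 at 1.04 and Slc1a1 at 0.87. In venDG Endothelial-like cells 59 were tested, the lowest being the peptide ligand gene Apln at -3.18 (SE 1.26), with Jam2 at -1.16 and Lrp6 at -0.45, and with Lcn2 at 1.11 (SE 0.46) and Ctnna1 at 0.67 (SE 0.31) among the high values. The medians over the list were -0.16, 0.06 and 0.11 in these 3 comparisons, beside -0.00, -0.01 and 0.00 over all genes tested. Between dorDG and venDG 38 of the list were tested over all cells, from -0.55 (Slco2b1, SE 0.17, p = 0.00406, adjusted p = 0.456 by edgeR), with Slc7a1 and Alcam next, to 0.32 (Slc1a1, SE 0.19), with Nrp1 and Mcam next. In Endothelial-like cells 57 were tested, from -0.82 (Lrp8, SE 0.40), with Jam2 and Slc38a5 next, to 0.73 (Lcn2, SE 0.42), with Notch4 and Slc1a1 next.

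In 8 replicates 2 reactions were run from 1 pool of tissue, and their levels are compared here in the order of their names. Abcb1a was at 0.725 ± 0.210 in the first and 1.48 ± 0.577 in the second, higher in the second in 6 of 8 (exact sign-flip permutation test, two-sided p = 0.0391). Slc2a1 went the other way, at 3.23 ± 1.43 and 1.68 ± 0.895, higher in the first in 6 of 8 (exact p = 0.0391). Neither p is adjusted for the 6 genes tested, and leaving out 1 replicate took each above 0.05 in 6 of 8 cases. Flt1 (3.78 and 3.91, exact p = 0.875), Pecam1 (1.04 and 1.17, exact p = 0.359) and Itm2a (4.82 and 3.85, exact p = 0.273) did not pass 0.05. The share of cells in Endothelial-like, Mural-like and mixed vascular clusters was 22.0% ± 4.81 in the first and 14.3% ± 6.50 in the second (exact p = 0.0625), and the Endothelial-like share was 15.8% ± 3.64 in the first, and the second minus the first was -4.75 percentage points (exact p = 0.156). The part of these shares in the differences was not tested. Whether the first or second reaction held cells or nuclei is not known, so the order and the content of a reaction cannot be told apart.

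Ribosomal content moved with the levels. Of the 180 Endothelial cells, 14 had less than 2% ribosomal UMIs, and in these Slc2a1 was at 4.37 against 13.8 in the rest, Itm2a at 11.5 (29.0 in all 180) and Pecam1 at 1.91 (7 UMIs) against 4.96. Flt1 was at 23.0 against 19.3 and Abcb1a at 5.74 against 5.64. Over all dorDG cells with at least 2% ribosomal UMIs the log2 fold changes of FT against Sham were 0.27 for Flt1, 0.09 for Slc2a1, -0.11 for Abcb1a, -0.38 for Itm2a and -0.43 for Pecam1. In venDG they ran from -0.51 (Pecam1) to -0.17 (Flt1), and none of the 5 genes was called in either region.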

How the data were processed

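Single-cell libraries (10x 3′ v2) of dorDG and venDG were sequenced on an Illumina HiSeq. The authors aligned and counted them with Cell Ranger 2.1.0 (build rn5 is in the submitters' processing notes), filtered cells, named the dorDG types with Seurat 3 and deposited raw UMI counts per gene and cell. Doublets were not called again here. A log-normalized venDG table was not used. Counts were summed per replicate and tested with edgeR 4.0.16 (quasi-likelihood; SE taken as the fold change over the root of F), with DESeq2 1.42.0 as an alternative. Both regions were clustered with scanpy 1.11.5 (2000 variable genes, 30 components, Leiden resolution 2) and named X-like from at least 3 markers. Replicates with under 5 cells of a set were left out. The code was tested on simulated data. Intervals cover counting error only. The genes, marker lists and barrier list were chosen with earlier results of these data known. Named barrier genes were those called and the 3 highest and 3 lowest fold changes of a comparison; those named for their level by role were chosen after their values were seen. One gene that this rule names is not reported here. The 3 genes most like each gene needed at least 100 UMIs. Alternatives were other tools, filters, blocks and left-out replicates.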

Additional observations from a re-analysis of the deposited data

Results flagged for a closer look

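Of 54 groups of 4 or 5 replicates, 4 had a replicate far from the others by Dixon's criterion, which chance gives in about 1 in 20 groups. Slc2a1 over all dorDG cells was 4.95 in FT replicate 2, against 2.42 to 2.76 in the other 3. Flt1 over all dorDG cells was 4.60 in Sham replicate 4, against 2.73 to 3.23. Abcb1a over all venDG cells was 1.24 in FT replicate 4, against 0.670 to 0.804. Flt1 in venDG Endothelial-like cells was 26.0 in Sham replicate 5, against 16.5 to 16.8.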

How the results depend on the processing

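Of 920 alternative values of 55 results, 777 were like the reported ones. Fold changes and differences counted as alike if direction and side of the threshold held, and levels if they stayed within the spread. Counts of genes called were alike if equal to the reported count or near it. The cause of the other shifts was not tested. Over all dorDG cells, where 1 of the genes and 1221 genes in all were called, DESeq2 called 2 (Flt1 and Slc2a1 at 0.57) and 1849, a 10-UMI filter 0 and 32, the cells with at least 2% ribosomal UMIs 0 and 0, the study's cell filter 615 in all, and removal of cells annotated Mossy 0 and 531. In the ribosomal setting Itm2a became -0.38 and Abcb1a -0.11 there, Flt1 in venDG -0.17 and Pecam1 in venDG Endothelial-like cells 0.06. Pecam1 was 0.09 there with replicates of at least 1 cell and 0.00 with venDG clustered alone. DESeq2 called 18 genes in venDG, 45 between regions (8 reported), 0 in Endothelial-like cells between regions (1 reported) and 8 for the interaction. The 10-UMI filter called 5 genes in dorDG Endothelial cells, 1 in venDG Endothelial-like cells, 46 and 13 between regions, and 2 for the Endothelial-like interaction. Leaving out mural and mixed vascular clusters, added after the data were seen, called 0 of the genes over venDG cells, between regions and for the interaction. The ribosomal setting left 0 genes called between regions in both sets. As a mean of per-cell levels, the second reaction minus the first was -0.281 for Flt1, -0.152 for Pecam1, -3.03 for Itm2a (now under 0.05) and 0.438 for Abcb1a (no longer so).

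No source used here states that same-numbered single-cell replicates were handled together. Reaction names run in order of replicate number across the groups, and replicates 1 and 2 held 2 reactions in every group. The supplementary methods, on tissue for the bulk assays, describe parallel processing of matching Sham and FT samples of a replicate. Whether same-numbered replicates shared a batch was not tested, and the reported FT against Sham tests left the replicate number out. The paper describes both regions as punched from brains of the same treatment groups, so dorDG and venDG pools may share animals. The reported tests between regions and of the interaction took the pools as independent. Deviations of same-numbered replicates correlated from -0.215 to 0.361 between FT and Sham over all dorDG cells, from -0.154 to 0.266 over venDG cells, and from 0.0936 to 0.553 between dorDG and venDG, where all 9 were above 0. With the replicate block, 0 of the genes and 0 in all were called over dorDG cells, 1 gene in dorDG Endothelial cells, 5 and 20 between regions, and 412 and 6 for the interactions. Flt1 in venDG was -0.01, Slc2a1 in venDG Endothelial-like cells 0.01 and Abcb1a between regions in Endothelial-like cells -0.02 with the block.

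Leaving out 1 replicate at a time gave 0 to 3 of the genes called over all dorDG cells (3 without Sham replicate 4: Flt1, Itm2a at 0.54 and Slc2a1 at 0.71) and 0 to 1969 genes in all (1969 and 1832 without Sham replicate 2 or 4, 477 without FT replicate 1, 1 without Sham replicate 1, 0 without FT replicate 4 or 5 or Sham replicate 3 or 5), 0 to 2 genes in dorDG Endothelial cells, 3 to 16 and 0 to 3 between regions, and 0 to 335 for the interaction over all cells. In venDG Flt1 ranged from -0.18 to 0.17 and Slc2a1 from -0.36 to 0.01. In dorDG Endothelial cells Pecam1 ranged from -0.22 to 0.07 and Itm2a from -0.14 to 0.23, and in venDG Endothelial-like cells Pecam1 from -0.19 to 0.15, Itm2a from -0.27 to 0.04 and Slc2a1 from -0.14 to 0.15. Between regions in Endothelial-like cells Abcb1a ranged from -0.02 to 0.06 and Slc2a1 from -0.15 to 0.07. The difference in Endothelial share ranged from -3.18 to 0.776 percentage points in dorDG and from -2.70 to 0.588 in venDG. Between reactions Flt1 ranged from -0.362 to 0.622, Abcb1a from 0.610 to 0.903 and Slc2a1 from -1.86 to -1.05. With 7 to 42 endothelial cells per replicate used, small differences were not detectable at this depth, and Cldn5 was not readable.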
